A study of Caenorhabditis elegans with 12 samples.

Results

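The transcriptomes of 2 single mutants of Caenorhabditis elegans, eat-2(ad465) and acs-20(tm3232), were set directly against each other. The comparison used 6 of the 12 RNA-seq libraries of the study, 3 per mutant, each made from whole worms at the late L4 larval stage. The eat-2 libraries came from strain DA465 and the acs-20 libraries from strain DCL29, so each genotype was represented by 1 strain with 1 allele. Worms of both strains were grown at 20 °C to the same stage. The 3 wild-type N2 libraries gave reference levels. They and the 3 libraries of the eat-2; acs-20 strain DCL33 also entered the filter on low counts, the scaling and the shared estimate of the spread. The labels number the libraries of a genotype but do not say that they came from separate cultures, so p-values measure the spread between these libraries, which may be technical.

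The eat-2 gene encodes a nicotinic acetylcholine receptor subunit that drives fast pumping of the pharynx, the feeding organ, and eat-2 mutants eat slowly and are widely used as a genetic form of dietary restriction. The acs-20 gene encodes an acyl-CoA synthetase of the fatty acid transport protein family, which activates very long chain fatty acids, and its loss is known to weaken the barrier that the cuticle forms around the worm. The epidermis beneath the cuticle answers damage by secreting small antimicrobial peptides of the nlp and cnc families. The comparison asks which transcripts separate a slow-feeding worm from a worm with a weakened outer barrier.

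Counts in genes ran from 8253781 to 10630057 in the eat-2 libraries and from 7116623 to 9517911 in the acs-20 libraries. On the first principal component of log2 CPM over all 12 libraries, which held 36% of the variance, the eat-2 libraries lay at 33.7, 21.0 and 19.9 and the acs-20 libraries at -27.2, -28.0 and -31.8. Ribosomal RNA genes took 5.69, 4.47 and 3.48% of the counts in eat-2, against 2.24, 2.60 and 2.19% in acs-20 and 2.63, 2.09 and 6.29% in wild-type. Every eat-2 library thus had more ribosomal RNA than every acs-20 library, and the part of this difference in the results was tested only by leaving the ribosomal genes out, which gave 1579 calls in place of 1576. The library of acs-20 replicate 2 stood apart from the other 2 of its group by its yolk and collagen transcripts, and without it 1009 genes were called. Replicate 2 of eat-2 and of wild-type also had the lowest furrow collagen sum of its group, as given below. Neither mutated gene separated the strains by its own count: eat-2 transcripts came to 0 counts in all eat-2 libraries, against 1, 3 and 0 counts in acs-20 and 0, 2 and 1 counts in wild-type, too few to test or to check the labels. Transcripts of acs-20 were at 88.5, 89.7 and 108 CPM in eat-2, against 108, 93.5 and 109 CPM in acs-20 and 123, 89.7 and 134 CPM in wild-type (log2 difference -0.12, SE 0.136, adjusted p = 0.651). CPM values are counts scaled to a common library total with TMM factors. Differences are log2 values of eat-2 over acs-20 from edgeR's quasi-likelihood test, and adjusted p-values are Benjamini-Hochberg values over 14390 genes.

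At an adjusted p under 0.05, 1576 of 14390 genes (11%) differed between the single mutants. Of these, 1012 were higher in eat-2 (7.03% of the genes tested) and 564 were lower (3.92%), while the median difference over all genes was 0.00 on the log2 scale. The fitted difference was at least 2-fold for 546 of the higher and 227 of the lower genes, and at least 4-fold for 174 and 88. A test against a 2-fold difference called 193 genes (1.34%). The eat-2 and acs-20 libraries did not overlap in 993 of the 1012 higher and 559 of the 564 lower genes, against 28.6% of all genes tested. Calls depended on which libraries entered: the 6 fits that each left out 1 library made 1003 to 1618 calls, and 789 of the 1576 remained called in all 6. Unless stated otherwise, each gene named as called below is among those 789. Counts of called members of a gene group are to be read beside the shares of all genes tested, 7.03% higher and 3.92% lower.

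**Figure D1:**
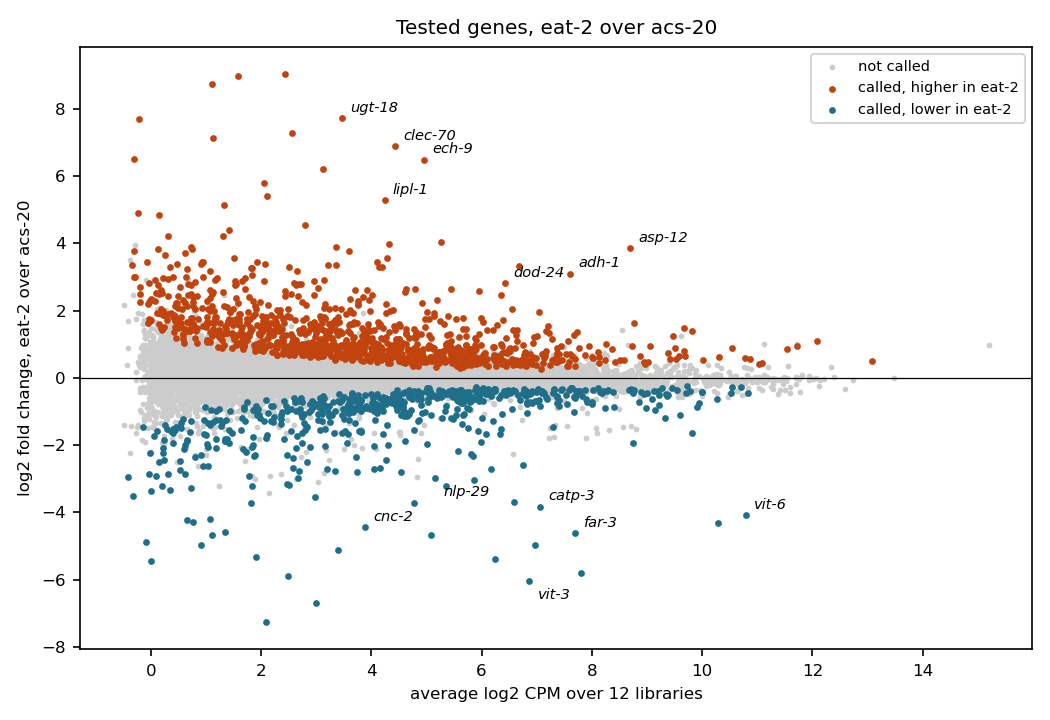
Log2 difference of eat-2 over acs-20 (vertical axis) against the average level in log2 CPM (horizontal axis) for the 14390 tested genes, 1 point per gene, with called genes coloured by direction. The 1012 genes above 0 outnumber the 564 below it. Of the labelled genes, ugt-18, clec-70, ech-9 and lipl-1 lie high, and vit-3, far-3 and cnc-2 lie low.

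Wild-type levels placed these differences. Among the 1012 genes higher in eat-2, the wild-type mean was nearer to acs-20 for 664 (65.6%) and nearer to eat-2 for 348 (34.4%). For 455 of them the wild-type libraries overlapped with acs-20 and lay apart from eat-2, and for 243 they overlapped with eat-2 and lay apart from acs-20. Among the 564 genes lower in eat-2, the wild-type mean was nearer to acs-20 for 378 (67.0%) and nearer to eat-2 for 186 (33.0%). In 265 of the 564 the wild-type libraries lay apart from eat-2 only, and in 132 from acs-20 only. In a further 222 of the 1012 and 126 of the 564 the wild-type libraries lay apart from both mutants. The wild-type mean lay between the mutants for 189 and 77 of these. In 92 of the 1012 and 41 of the 564 the wild-type libraries lay apart from neither mutant. The other called genes formed 4 kinds. They lay above or below wild-type in eat-2 only, or above or below wild-type in acs-20 only. Some genes described below under these kinds lay apart from wild-type in both mutants. These positions are descriptions of the called genes and carry no test of their own.

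The first kind comprised genes that were high in eat-2 and low in both acs-20 and wild-type. Most of the 12 highest named genes were of this kind. Transcripts of ugt-18, a UDP-glucuronosyltransferase gene on chromosome V, were at 31.97, 29.2 and 21.0 CPM in eat-2, against 0.317, 0 and 0 CPM in acs-20 and 0.311, 0.282 and 0.1003 CPM in wild-type. The counts were 739 in eat-2 and 3 in acs-20 over the 3 libraries each, a ratio of 231 with an exact 95% binomial interval of 78.8 to 1124 that covers counting error only. All eat-2 libraries carried the transcript, while 2 acs-20 libraries had none.

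The C-type lectin gene clec-70 on chromosome IV was at 80.6, 52.2 and 63.9 CPM in eat-2, against 0.739, 0.435 and 0.421 CPM in acs-20 and 0.829, 0.659 and 1.003 CPM in wild-type. Its difference shared the smallest adjusted p of the comparison with far-3 (log2 difference 6.88, SE 0.243, adjusted p = 9.94e-10). C-type lectins are secreted or membrane proteins with a sugar-binding fold, many of them expressed in the intestine during infection. Another member, clec-169, had 54.2, 50.5 and 28.5 CPM in eat-2, against 4.01, 2.83 and 4.35 CPM in acs-20 and 4.98, 4.801 and 5.92 CPM in wild-type (log2 difference 3.58, SE 0.259, adjusted p = 2.19e-06). Every eat-2 library exceeded every acs-20 and wild-type library for both lectins.

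Lipid breakdown genes were also prominent. Transcripts of ech-9, an enoyl-CoA hydratase family gene of fatty acid beta-oxidation, were at 75.9, 66.9 and 69.1 CPM in eat-2, against 1.16, 0.762 and 0.280 CPM in acs-20 and 1.66, 3.86 and 1.91 CPM in wild-type (log2 difference 6.49, SE 0.288, adjusted p = 1.99e-08). The lysosomal lipase gene lipl-1, known to be induced by fasting, was at 61.3, 38.4 and 42.0 CPM in eat-2, against 1.37, 1.63 and 0.421 CPM in acs-20 and 3.32, 2.73 and 6.62 CPM in wild-type (log2 difference 5.29, SE 0.399, adjusted p = 7.96e-06). In both genes the lowest eat-2 library was far above the highest acs-20 library, and every wild-type library lay above every acs-20 library. The aspartic protease gene asp-12 reached 1174, 893 and 892 CPM in eat-2, against 73.9, 66.0 and 64.9 CPM in acs-20 and 154, 131 and 89.4 CPM in wild-type (log2 difference 3.85, SE 0.220, adjusted p = 8.34e-07), which made it the most abundant transcript among the 12 highest named genes. Claudin-like clc-11 averaged 18.1 ± 4.79 CPM in eat-2 and 0.214 ± 0.186 CPM in acs-20, with 1.02 ± 0.263 CPM in wild-type (SD of 3 libraries each, as for all means below; log2 difference 6.21, SE 0.465, adjusted p = 2.46e-06).

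The tetraspanin genes tsp-2 and tsp-1, membrane scaffold proteins, were higher in eat-2 by 3.77 (adjusted p = 0.000492) and 3.35 (adjusted p = 0.00272) on the log2 scale. C08E3.13 and T19C9.8, known here only by sequence names, differed by 4.03 (adjusted p = 5.09e-05) and 3.97 (adjusted p = 1.23e-06). Reads of T19C9.8 may be shared with a coding gene it overlaps on the same strand. The collagen gene col-41 completed the 12 highest, with 346, 166 and 86.7 CPM in eat-2, against 13.2, 16.8 and 29.7 CPM in acs-20 and 6.12, 17.98 and 11.7 CPM in wild-type (log2 difference 3.34, SE 0.763, adjusted p = 0.0225), and its libraries varied more. It was not called without eat-2 replicate 1, acs-20 replicate 1 or acs-20 replicate 2, where its adjusted p was 0.0836, 0.0826 and 0.0663.

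**Figure D2:**
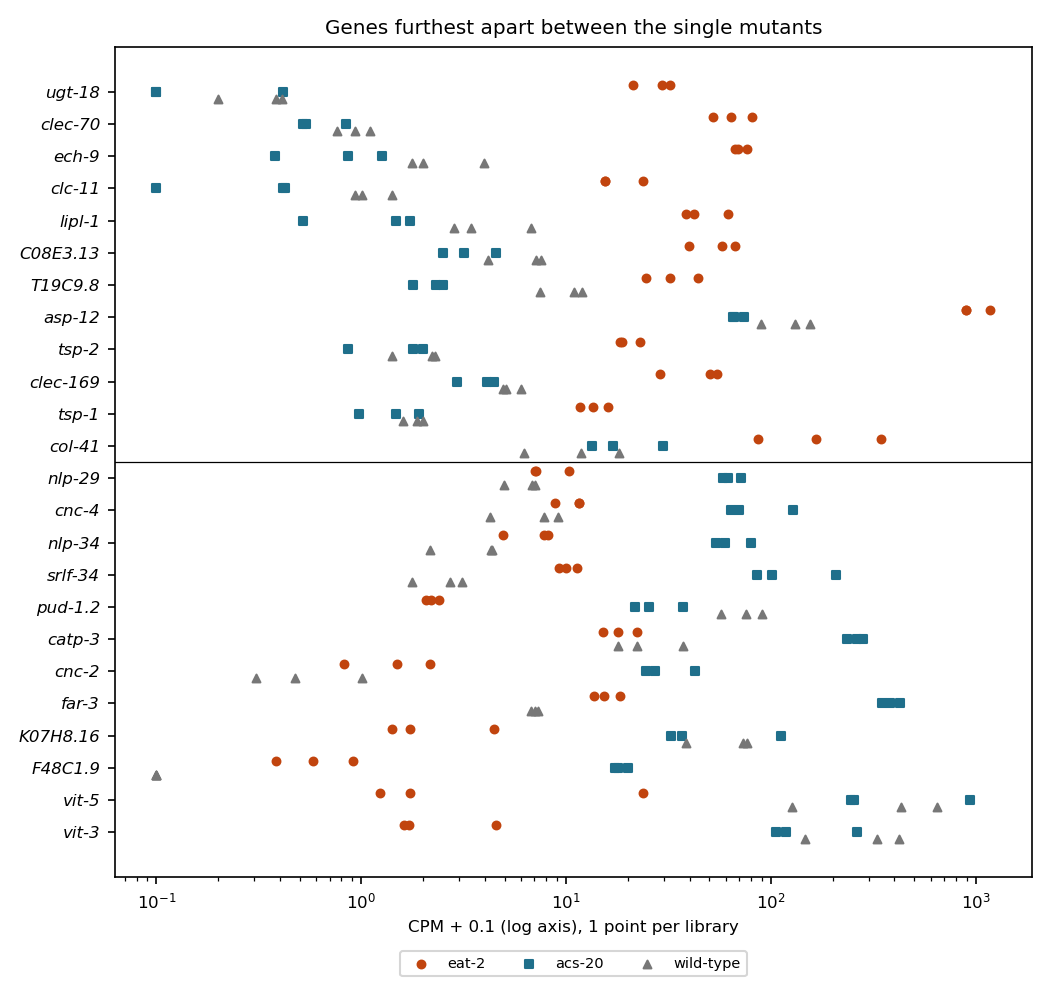
CPM on a log axis for the 12 highest and 12 lowest named genes, 1 point per library, with eat-2, acs-20 and wild-type side by side for each gene. The eat-2 and acs-20 points do not overlap for any of these genes, and wild-type points lie mostly with acs-20 for the high genes and with eat-2 for the epidermal peptides, far-3 and catp-3.

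Genes above wild-type in acs-20 formed the second kind and included the epidermal antimicrobial peptides. Of 14 tested peptide genes of the nlp and cnc families, 10 were lower in eat-2 and 0 were higher, against 3.92% and 7.03% of all genes, with a median difference of -1.99. Transcripts of nlp-29, the best known reporter of wounding and fungal infection of the epidermis, were at 6.997, 6.98 and 10.2 CPM in eat-2, against 58.0, 71.1 and 61.8 CPM in acs-20 and 4.87, 6.97 and 6.72 CPM in wild-type (log2 difference -2.97, SE 0.224, adjusted p = 4.66e-06). The acs-20 libraries stood far above both others, and the lowest eat-2 library lay just above the highest wild-type library. A similar arrangement was seen for cnc-2, with 0.724, 1.395 and 2.07 CPM in eat-2, against 27.1, 42.6 and 24.5 CPM in acs-20 and 0.207, 0.377 and 0.903 CPM in wild-type (log2 difference -4.44, SE 0.395, adjusted p = 1.98e-05).

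Other called peptide genes were also highest in acs-20. Transcripts of nlp-34 averaged 6.84 ± 1.75 CPM in eat-2 and 64.4 ± 13.5 CPM in acs-20, with 3.51 ± 1.24 CPM in wild-type (log2 difference -3.22, adjusted p = 2.18e-05). The caenacin gene cnc-4 averaged 10.5 ± 1.56 CPM in eat-2 and 86.9 ± 35.7 CPM in acs-20, with 6.97 ± 2.53 CPM in wild-type (log2 difference -3.05, adjusted p = 0.000583). For nlp-30, nlp-31 and nlp-32 the differences were -2.32, -1.66 and -4.68, with adjusted p = 7.62e-06, 8.34e-06 and 1.45e-05. The mean of nlp-30 was 20.6 CPM in eat-2 and 104 CPM in acs-20, with 20.8 CPM in wild-type. The 4 members that did not pass were nlp-28, nlp-33, cnc-3 and cnc-8, named after their values were seen. Leaving out 1 library at a time left 8 to 10 members lower. Markers of the epidermis itself overlapped, with sums of 2135 to 2817 CPM in eat-2, 2219 to 3037 CPM in acs-20 and 2192 to 3376 CPM in wild-type. Several of these genes are close paralogs, and reads with more than 1 position were not counted.

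Most regulators known to control these peptides were not called. Of 19 tested regulators, including the p38 and GATA factor branches, 3 were higher in eat-2 and 0 lower, against 7.03% and 3.92% of all genes. Their differences were positive in 15 of the 19, with a median of 0.22. The GATA factor gene elt-3, an activator of epidermal genes, was the member called in all 6 fits with a library left out, at 56.3 ± 9.17 CPM in eat-2 and 27.6 ± 5.70 CPM in acs-20, with 39.7 ± 2.99 CPM in wild-type (log2 difference 1.03, SE 0.156, adjusted p = 0.000736). Its wild-type libraries lay between the mutants and apart from both. Without eat-2 replicate 1, acs-20 replicate 2 or acs-20 replicate 3 the count of higher regulators was 1.

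Other transcripts were high in acs-20 and low in both eat-2 and wild-type. Transcripts of far-3, which encodes a secreted carrier of fatty acids and retinol, were at 15.2, 13.5 and 18.3 CPM in eat-2, against 378, 426 and 349 CPM in acs-20 and 6.95, 7.15 and 6.62 CPM in wild-type (log2 difference -4.61, SE 0.159, adjusted p = 9.94e-10). The acs-20 libraries had the only high values, and the 3 eat-2 libraries exceeded the 3 wild-type libraries. The neighbouring far-5 also was lower in eat-2 (log2 difference -1.96, adjusted p = 2.55e-05), but far-3 and far-5 overlap on opposite strands, and with the strand setting unknown their reads cannot be told apart. Of the 7 tested far genes, far-7 (2.15, adjusted p = 0.00093) and far-8 (0.70, adjusted p = 0.00723) were higher in eat-2. The abundant far-1 and far-2 differed by -0.055 and -0.37, with adjusted p = 0.785 and 0.0587.

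The cation-transporting ATPase gene catp-3 was at 21.96, 17.8 and 15.1 CPM in eat-2, against 235, 280.1 and 262 CPM in acs-20 and 17.7, 37.2 and 22.2 CPM in wild-type (log2 difference -3.83, SE 0.299, adjusted p = 1.22e-05). Its relative catp-1 had a difference of -0.61 (adjusted p = 0.0049), and these 2 were the called genes among 15 tested ion pumps. Transcripts of srlf-34 averaged 10.1 ± 1.02 CPM in eat-2 and 131 ± 66.1 CPM in acs-20, with 2.43 ± 0.695 CPM in wild-type (log2 difference -3.71, adjusted p = 0.000423), and this gene overlaps the coding gene gcy-5 on the other strand. F48C1.9 was at 0.483, 0.814 and 0.283 CPM in eat-2, against 17.8, 19.9 and 17.2 CPM in acs-20, and was listed at 0 in all wild-type libraries (log2 difference -5.13, SE 0.292, adjusted p = 1.23e-06). In each case the acs-20 libraries were the high ones.

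Astacin metalloproteases, some of which remodel cuticle, included genes of this kind. Of 29 tested, 5 were lower and 2 higher in eat-2, against 3.92% and 7.03% of all genes, and 1 was higher when eat-2 replicate 1 was left out. Transcripts of nas-10 were at 0.241, 0 and 0.188 CPM in eat-2, against 3.49, 5.01 and 2.66 CPM in acs-20 and 0, 0.0941 and 0 CPM in wild-type (log2 difference -4.57, SE 0.697, adjusted p = 0.000807), and nas-33 averaged 2.31 ± 0.648 CPM in eat-2 and 9.53 ± 2.34 CPM in acs-20, with 1.82 ± 0.136 CPM in wild-type (log2 difference -2.06, adjusted p = 0.000256). Both overlap a coding gene on the opposite strand. The amino acid transporter gene aat-8 had 2.05, 2.33 and 2.73 CPM in eat-2, against 16.7, 12.95 and 16.3 CPM in acs-20 and 3.01, 3.58 and 4.11 CPM in wild-type (log2 difference -2.67, SE 0.194, adjusted p = 1.79e-06).

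Iron and metal handling genes were lower in eat-2 in 5 of 16 cases and higher in 0, against 3.92% and 7.03% of all genes, with a median of -0.50. Transcripts of ftn-1, which encodes the iron-storing ferritin heavy chain, were at 3.14, 1.86 and 1.13 CPM in eat-2, against 17.2, 17.6 and 12.3 CPM in acs-20 and 4.77, 2.92 and 5.31 CPM in wild-type (log2 difference -2.98, SE 0.358, adjusted p = 0.00013). The heme transporter gene hrg-1 (-1.24, adjusted p = 0.000304) and the zinc transporter gene cdf-2 (-0.55, adjusted p = 0.00764) were also lower in eat-2. For these 2 genes wild-type lay nearer to acs-20: hrg-1 averaged 6.98 CPM in eat-2 and 16.5 CPM in acs-20, with 12.79 CPM in wild-type, and cdf-2 averaged 17.1 CPM in eat-2 and 25.1 CPM in acs-20, with 23.9 CPM in wild-type. Without eat-2 replicate 3 or acs-20 replicate 3 the count was 3.

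Genes below wild-type in eat-2 made up the third kind, with the vitellogenins at its head. Vitellogenins are yolk proteins that the intestine makes as worms approach adulthood. All 6 tested genes were lower in eat-2, with a median of -5.18, and all 6 remained so in each fit without a library. Transcripts of vit-1 were at 9.77, 7.91 and 5.37 CPM in eat-2, against 176, 315 and 228 CPM in acs-20 and 248, 287 and 171 CPM in wild-type (log2 difference -4.97, SE 0.295, adjusted p = 1.65e-06). Those of vit-2 were at 180.2, 84.2 and 64.3 CPM in eat-2, against 1279, 4239.7 and 1069 CPM in acs-20 and 2575, 3203 and 1149 CPM in wild-type (log2 difference -4.33, SE 0.726, adjusted p = 0.00495). The eat-2 libraries were the low ones for both, acs-20 and wild-type overlapped, and acs-20 replicate 2 was far above its group for vit-2.

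For vit-6, the counterpart on chromosome IV, the values were 231, 155 and 116 CPM in eat-2, against 1656, 5409 and 1458 CPM in acs-20 and 4131, 4847 and 1968 CPM in wild-type (log2 difference -4.09, SE 0.611, adjusted p = 0.0027). The lowest differences among the named genes were those of vit-3 (-6.03, adjusted p = 0.000185) and vit-5 (-5.81, adjusted p = 0.0126), which with vit-4 (-5.39, adjusted p = 0.00331) are near-identical copies whose reads could have been split. The reads of vit-2 may include some of C42D8.9 on the other strand. K07H8.16, known here only by its sequence name, is annotated as a noncoding RNA gene on chromosome IV, which also carries vit-6. It had a similar pattern, at 4.34, 1.63 and 1.32 CPM in eat-2, against 36.4, 112 and 32.4 CPM in acs-20 and 72.5, 76.5 and 38.2 CPM in wild-type (log2 difference -4.68, SE 0.678, adjusted p = 0.0019).

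All 3 tested pud genes, named for small proteins up-regulated in daf-2 mutants, were lower in eat-2. Transcripts of pud-1.2 were at 2.29, 2.09 and 1.98 CPM in eat-2, against 25.3, 37.1 and 21.6 CPM in acs-20 and 75.1, 56.6 and 90.3 CPM in wild-type (log2 difference -3.73, SE 0.255, adjusted p = 1.54e-06), an order in which wild-type was highest. Those of pud-3 averaged 1.09 ± 0.106 CPM in eat-2 and 6.94 ± 3.53 CPM in acs-20, with 61.2 ± 23.3 CPM in wild-type (log2 difference -2.68, adjusted p = 0.00354). The third member, pud-4, had a difference of -1.95 (adjusted p = 0.0321) and stayed called only when acs-20 replicate 3 was left out; the other fits gave adjusted p-values of 0.0595 to 0.123. Copies of pud genes are close to identical, so their counts are uncertain.

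Genes below wild-type in acs-20 formed the fourth kind. The CUB-domain gene dod-24, regulated by insulin signalling and pathogens, was at 132, 89.9 and 120.2 CPM in eat-2, against 19.1, 12.4 and 17.1 CPM in acs-20 and 119, 112 and 116 CPM in wild-type (log2 difference 2.81, SE 0.164, adjusted p = 4.13e-07). Transcripts of wrt-8, a hedgehog-related gene, were at 35.1, 31.05 and 29.5 CPM in eat-2, against 7.50, 9.47 and 6.45 CPM in acs-20 and 36.0, 27.5 and 28.9 CPM in wild-type (log2 difference 2.02, SE 0.164, adjusted p = 5.55e-06). In both genes wild-type overlapped with eat-2 and lay apart from acs-20.

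Small nematode-specific peptides of the nspc family were called higher in eat-2 in 10 of 13 tested cases and lower in 0, against 7.03% and 3.92% of all genes, with a median of 2.45. The related nspd family had 1 of 9 higher and a median of 0.08, and over the 34 tested genes of the nspa to nspe families 12 were higher and 0 lower, with a median of 0.29. Transcripts of nspc-14 were at 30.3, 26.6 and 26.4 CPM in eat-2, against 3.70, 6.10 and 7.29 CPM in acs-20 and 14.6, 18.9 and 15.6 CPM in wild-type (log2 difference 2.30, SE 0.201, adjusted p = 8.34e-06), and those of nspc-20 averaged 29.6 ± 7.41 CPM in eat-2 and 5.36 ± 0.469 CPM in acs-20, with 18.1 ± 5.29 CPM in wild-type (log2 difference 2.47, adjusted p = 1.91e-05). For nspc-16 there were 177 counts in eat-2 and 0 in acs-20, which is at least 55.4-fold higher against a floor of 3 counts over the acs-20 group. The nspc genes lie on chromosome X in the annotation and resemble each other, so reads could have been shared between them. Transcripts of metr-1, the methionine synthase gene, averaged 1033 ± 78.1 CPM in eat-2 and 597 ± 106 CPM in acs-20, with 861 ± 55.4 CPM in wild-type (log2 difference 0.79, adjusted p = 0.000919). Those of hsp-12.3, a small heat shock protein gene, averaged 4.08 ± 1.44 CPM in eat-2 and 1.29 ± 0.173 CPM in acs-20, with 4.51 ± 1.01 CPM in wild-type (log2 difference 1.66, adjusted p = 0.00408). For nspc-14, nspc-16, nspc-20 and metr-1 every wild-type library lay between the mutants. These genes were thus above wild-type in eat-2 as well as below it in acs-20.

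**Figure D3:**
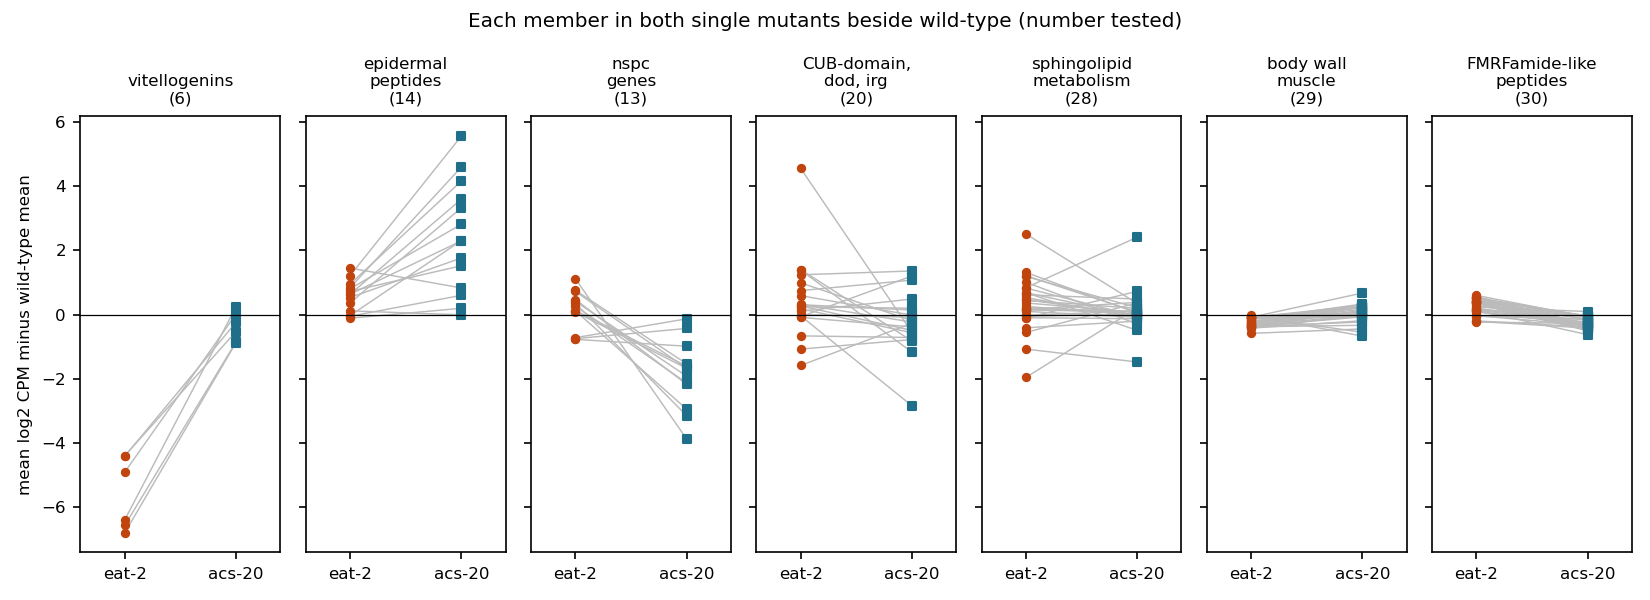
Mean log2 CPM minus the wild-type mean in eat-2 (left points) and acs-20 (right points) of each panel, with 1 line per tested gene of 7 gene groups. The 6 vitellogenins lie far below 0 in eat-2 only, most of the 14 epidermal peptides lie well above 0 in acs-20, and most nspc genes lie below 0 in acs-20.

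Of 103 tested C-type lectin genes, 37 were higher in eat-2 and 5 lower, against 7.03% and 3.92% of all genes, with a median of 0.55 and positive differences in 76. Besides clec-70 and clec-169, clec-17 averaged 9.33 ± 3.23 CPM in eat-2 and 0.153 ± 0.0524 CPM in acs-20, with 0.468 ± 0.166 CPM in wild-type (log2 difference 5.79, adjusted p = 5.55e-06) and clec-72 averaged 124 ± 33.8 CPM in eat-2 and 21.0 ± 4.64 CPM in acs-20, with 28.3 ± 4.43 CPM in wild-type (2.57, adjusted p = 7.25e-06). The count of higher lectins ranged from 30 to 40 over the fits without a library. The 5 lower ones came to 2 without eat-2 replicate 3, and also to 2 when any 1 of the acs-20 libraries was left out.

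Of 20 tested CUB-domain and dod genes, 9 were higher in eat-2 and 0 lower, against 7.03% and 3.92% of all genes. Transcripts of dod-22 averaged 21.4 ± 3.71 CPM in eat-2 and 4.40 ± 0.804 CPM in acs-20, with 7.91 ± 1.12 CPM in wild-type (log2 difference 2.28, adjusted p = 2.95e-05). Those of dod-21 came to 221 counts in eat-2 and 1 in acs-20, a ratio of 207 with an exact interval of 36.8 to 8229. Lysozymes and saposin-like proteins, which attack bacterial cell walls and membranes, split: 9 of 32 were higher and 4 lower, against the same shares. In this group spp-18 (1.69, adjusted p = 1.91e-05) was higher and spp-17 (-1.94, adjusted p = 1.65e-06) and ilys-5 (-1.63, adjusted p = 6.79e-06) were lower. The counts of spp-12 were 197 in eat-2 and 1 in acs-20, a ratio of 185 with an exact interval of 32.8 to 7340.

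The pals family, part of the response to intracellular pathogens, had 5 of 15 tested genes higher in eat-2 and 1 lower, against 7.03% and 3.92% of all genes. The higher ones included pals-23 (1.60, adjusted p = 0.000145) and pals-24 (1.61, adjusted p = 0.000254), and the lower one was pals-26 (-2.75, adjusted p = 0.000438).

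Lipid genes differed by branch. Of 42 tested beta-oxidation genes, 8 were lower in eat-2 and 3 higher, with a median of -0.19. The 3 higher ones were ech-9, acox-1.5, an acyl-CoA oxidase gene (2.46, adjusted p = 0.000218), and hacd-1, a hydroxyacyl-CoA dehydrogenase gene at 120.3, 109 and 89.1 CPM in eat-2, against 33.9, 32.3 and 35.1 CPM in acs-20 and 39.3, 37.8 and 47.5 CPM in wild-type (log2 difference 1.65, SE 0.186, adjusted p = 8.53e-05). The carnitine palmitoyltransferase gene cpt-5 was lower (-0.87, adjusted p = 0.00402). The count of lower genes was 3 without eat-2 replicate 1, acs-20 replicate 1 or acs-20 replicate 3, and 4 without eat-2 replicate 2, while that of higher genes was 5 without eat-2 replicate 2. The lipase gene lipl-3 is, like lipl-1, a fasting-induced lysosomal lipase in the literature. It averaged 2.71 ± 0.597 CPM in eat-2 and 0.378 ± 0.132 CPM in acs-20, with 1.76 ± 0.333 CPM in wild-type (log2 difference 2.75, SE 0.366, adjusted p = 0.000262). Unlike for lipl-1, the wild-type libraries of lipl-3 overlapped with eat-2 and lay apart from acs-20. Of 12 lipases 3 were higher and 0 lower.

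Of 19 tested fatty acid desaturases and elongases, 1 was called, and 7 had an unadjusted p under 0.05. The call was lost without eat-2 replicate 2, eat-2 replicate 3, acs-20 replicate 1 or acs-20 replicate 3. Of 22 acyl-CoA synthetases 1 was higher and 2 lower, with 8 at an unadjusted p under 0.05, and the lower count was 0 without eat-2 replicate 3 or acs-20 replicate 1. The delta-9 desaturase genes fat-5 and fat-7 differed by 0.16 (adjusted p = 0.595) and 0.39 (adjusted p = 0.189). The acyl-CoA synthetase gene acs-2, a marker of fasting, differed by 0.68 with an SE of 0.395 (adjusted p = 0.331). A p above the threshold does not show that these levels were alike.

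Sphingolipid genes were called in 12 of 28 cases, 9 higher and 3 lower in eat-2, against 7.03% and 3.92% of all genes. In every fit without a library 8 or 9 were higher. Breakdown enzymes were among the higher ones: asm-2, an acid sphingomyelinase gene, was at 43.1, 42.1 and 31.5 CPM in eat-2, against 8.34, 9.47 and 7.57 CPM in acs-20 and 7.57, 6.78 and 5.52 CPM in wild-type (log2 difference 2.19, SE 0.179, adjusted p = 5.55e-06), and asah-1, an acid ceramidase gene, averaged 57.8 ± 10.7 CPM in eat-2 and 24.03 ± 4.86 CPM in acs-20, with 22.9 ± 1.15 CPM in wild-type (log2 difference 1.27, adjusted p = 0.000139). The first enzyme of synthesis, serine palmitoyltransferase, was represented by sptl-1 (0.74, adjusted p = 0.00254) and sptl-2 (1.20, adjusted p = 0.000254). The ceramide synthase gene hyl-1 differed by 0.89 (adjusted p = 0.00354), and sptl-1, sptl-2 and hyl-1 were named after their values were seen. Wild-type means lay nearer to acs-20 for asm-2, sptl-1, sptl-2 and hyl-1. The glucocerebrosidase gene gba-1 was higher (0.99, adjusted p = 0.000126), but it overlaps gba-2 on the opposite strand and its reads cannot be told apart from those of that gene.

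Detoxification genes moved both ways. Of 56 tested UDP-glucuronosyltransferases, 16 were higher and 11 lower in eat-2, against 7.03% and 3.92% of all genes. Beside ugt-18, ugt-13 was higher (2.21, adjusted p = 4.75e-05), while ugt-33 averaged 1.27 ± 0.574 CPM in eat-2 and 11.3 ± 4.06 CPM in acs-20, with 1.95 ± 0.393 CPM in wild-type (log2 difference -3.18, adjusted p = 4.58e-05). The count of higher genes was 9 without eat-2 replicate 1, 8 without acs-20 replicate 2 and 10 without acs-20 replicate 3, and that of lower genes was 7 without acs-20 replicate 2.

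Cytochrome P450 genes divided into 9 higher and 8 lower of 53. The higher ones included cyp-13A5 (2.65, adjusted p = 6.31e-05) and cyp-33C8 (3.29, adjusted p = 0.000807), and cyp-14A2 was lower (-2.31, adjusted p = 0.000419). Higher P450 genes numbered 5 without eat-2 replicate 1, acs-20 replicate 1 or acs-20 replicate 3, and lower ones 3 without acs-20 replicate 2, 4 without eat-2 replicate 1 and 5 when eat-2 replicate 3 was left out.

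Glutathione S-transferases were lower in eat-2 in 5 of 28 cases and higher in 2, and the higher count was 0 without eat-2 replicate 1 and 1 without acs-20 replicate 3. Transcripts of gst-4, a common reporter of the oxidative stress factor SKN-1, were at 4.34, 3.37 and 4.24 CPM in eat-2, against 9.72, 9.69 and 9.26 CPM in acs-20 and 10.1, 14.6 and 10.6 CPM in wild-type (log2 difference -1.26, SE 0.186, adjusted p = 0.000604), with the eat-2 libraries lowest. Those of gst-10 averaged 16.02 ± 0.890 CPM in eat-2 and 72.4 ± 3.39 CPM in acs-20, with 82.0 ± 26.8 CPM in wild-type (log2 difference -2.17, adjusted p = 1.18e-05). Carboxylesterases, which cleave esters of drugs and lipids, were lower in 11 of 29 cases and higher in 2, with a median of -0.48 and a leave-out range of 9 to 10 lower. The higher count was 0 without eat-2 replicate 1 or acs-20 replicate 3 and 1 without eat-2 replicate 2, acs-20 replicate 1 or acs-20 replicate 2. The example with the greatest difference by the naming rule was cest-10 (-1.94, adjusted p = 0.000234).

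**Figure D4:**
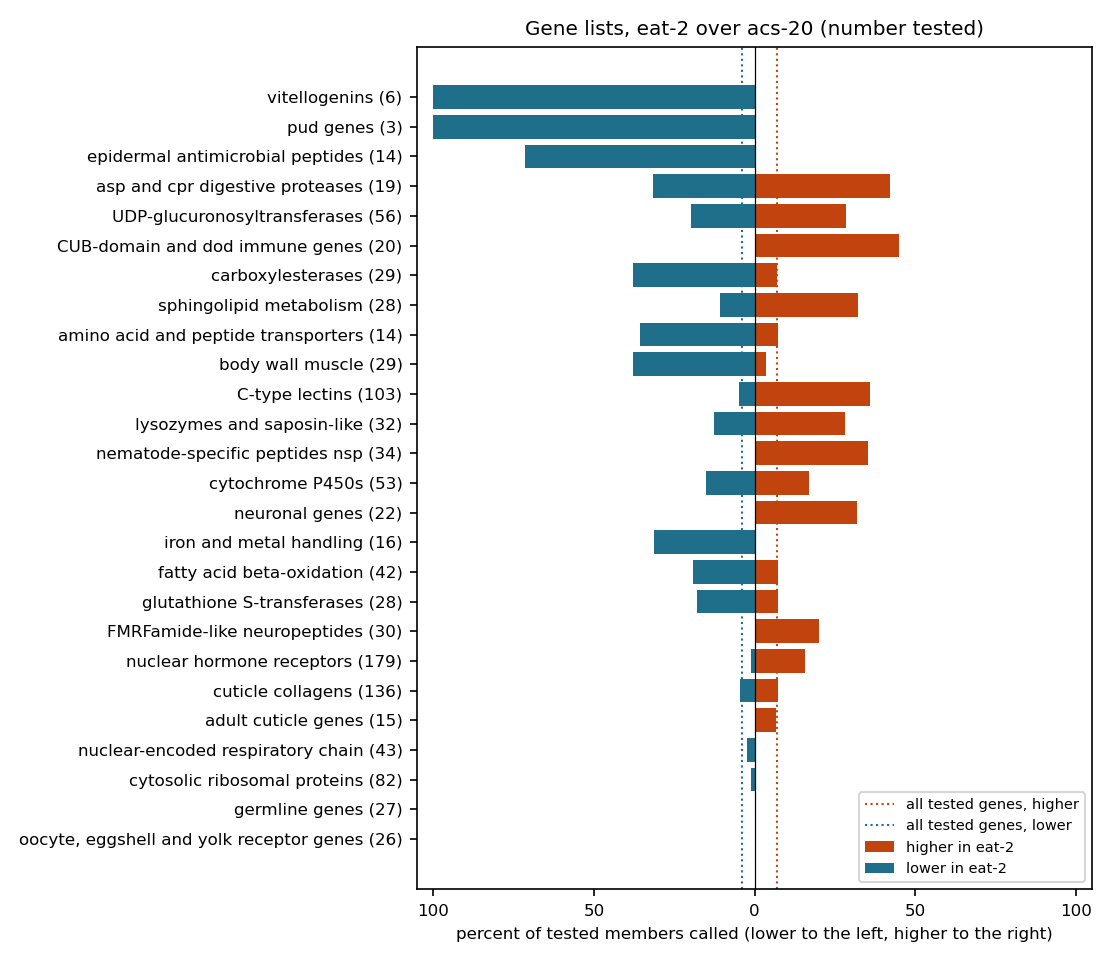
Percent of the tested genes of each group called higher (bars to the right) or lower (bars to the left) in eat-2 than in acs-20, with the number tested in brackets and dotted lines at the shares of all tested genes, 7.03% and 3.92%. Bars for vitellogenins, pud genes and epidermal peptides run to the left only, those for CUB-domain and dod genes to the right only, and cuticle collagens lie near the dotted lines.

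Digestive proteases were called in most cases: of 19 tested asp and cpr genes, 8 were higher and 6 lower in eat-2. Next to asp-12, the aspartic protease gene asp-6 (1.09, adjusted p = 2.45e-05) and the cathepsin B-like cpr-3 (1.78, adjusted p = 9.67e-06) were higher. The abundant intestinal gene cpr-1 was lower, at 512, 558 and 455 CPM in eat-2, against 986, 1087 and 1198 CPM in acs-20 and 694, 530.4 and 662 CPM in wild-type (log2 difference -1.1002, SE 0.122, adjusted p = 5.76e-05), as was cpr-6 (-0.86, adjusted p = 8.18e-05). Different members of the same protease family were thus high in different strains.

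Of 54 tested autophagy and lysosomal proton pump genes 5 were higher and 1 lower, about the share of all genes (11%), while 44 had positive differences. The higher ones included lmp-2, a lysosomal membrane protein gene, at 1.16 (adjusted p = 0.000643). The count of higher genes was 2 without eat-2 replicate 1, acs-20 replicate 2 or acs-20 replicate 3, and 3 without eat-2 replicate 3 or acs-20 replicate 1. Amino acid and peptide transporters were lower in 5 of 14 cases and higher in 1. The higher one was aat-2 (1.55, adjusted p = 0.000196), and the lower ones included pept-2 (-0.83, adjusted p = 0.00379). That count was 3 without eat-2 replicate 2 or acs-20 replicate 1.

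Transport of water and osmolytes differed at single genes. The inositol transporter genes hmit-1.1 and hmit-1.2, induced by high salt, were lower in eat-2, with log2 differences of -1.22 (adjusted p = 0.00565) and -2.01 (adjusted p = 9.22e-05). Transcripts of hmit-1.1 were at 4.58, 2.56 and 4.33 CPM in eat-2, against 8.55, 11.2 and 6.87 CPM in acs-20 and 27.7, 30.97 and 33.4 CPM in wild-type, so that both mutants lay below wild-type. The osmotic response regulator gene osm-11 was higher (0.99, adjusted p = 1.24e-05). The aquaporin gene aqp-7 was higher (0.90, adjusted p = 7.5e-05), and aqp-1, which overlaps a coding gene on the other strand, was lower (-0.91, adjusted p = 0.00826).

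Nuclear hormone receptors were higher in eat-2 in 28 of 179 tested cases and lower in 2, with positive differences in 148 and a median of 0.33. The higher ones included nhr-80, a regulator of fatty acid desaturation and lifespan (1.17, adjusted p = 0.000336), and nhr-265 (2.79, adjusted p = 0.000718), and nhr-11 was lower (-1.65, adjusted p = 0.0004). The higher count was 14 without eat-2 replicate 1, 15 without acs-20 replicate 2 and 13 without acs-20 replicate 3. Among regulators of dietary restriction and lifespan 3 of 23 were higher and 0 lower, against 7.03% and 3.92% of all genes. The long noncoding RNA tts-1, abundant in long-lived strains, was at 74.8, 63.5 and 62.6 CPM in eat-2, against 12.9, 7.29 and 11.78 CPM in acs-20 and 11.6, 7.63 and 7.22 CPM in wild-type (log2 difference 2.65, SE 0.263, adjusted p = 5.37e-05). All eat-2 libraries exceeded all acs-20 and wild-type libraries for tts-1. The insulin-like peptide gene ins-7 averaged 3.22 ± 0.291 CPM in eat-2 and 1.05 ± 0.0909 CPM in acs-20, with 1.53 ± 0.205 CPM in wild-type (log2 difference 1.61, adjusted p = 0.00177).

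Stress chaperones and core machinery gave few calls of single genes, but some of their sums lay apart. Of 19 heat shock proteins 1 was called, of 20 endoplasmic reticulum stress genes 1, and of 12 mitochondrial stress genes 0 by edgeR, with 2 at an unadjusted p under 0.05 and 0 by DESeq2. The endoplasmic reticulum stress call was lost in 5 of the 6 fits without a library. The chaperone genes hsp-4 and hsp-6 differed by -0.14 (adjusted p = 0.55) and -0.13 (adjusted p = 0.552). Heat shock protein transcripts summed to 7901 to 8735 CPM in eat-2, against 9223 to 10412 CPM in acs-20 and 9057 to 10622 CPM in wild-type. Of 82 cytosolic ribosomal protein genes 1 was called, and its call was lost in each fit without a library. Of 43 nuclear-encoded respiratory chain genes 1 was called lower by edgeR and 7 genes by DESeq2. Their differences were negative in 42 of 43, with a median of -0.15. The strains did not overlap for 20 of the 43, against 28.6% of all genes tested. The respiratory chain genes summed to 15381 to 17126 CPM in eat-2, against 17956 to 18533 CPM in acs-20 and 18390 to 18920 CPM in wild-type. Both sums were thus lower in every eat-2 library than in every acs-20 and wild-type library.

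Cuticle collagens were called at about the background share. Of 136 cuticle collagens 10 were higher and 6 lower in eat-2 (against 7.03% and 3.92% of all genes). The differences leaned against the calls, with 89 of the 136 negative, 47 positive and a median of -0.23. The genes called higher included col-10 (1.48, adjusted p = 0.000577), col-117 (1.39, adjusted p = 0.000671) and col-166 (1.39, adjusted p = 0.000419), and col-76 was lower (-1.12, adjusted p = 0.00246). The lower count was 3 without eat-2 replicate 2. Of 30 cuticlins 4 were higher (against 7.03% of all genes), among them cutl-3 (1.46, adjusted p = 0.0048) and cutl-10 (1.54, adjusted p = 0.00815), and the count was 2 without eat-2 replicate 1 or acs-20 replicate 3. Of 61 hedgehog-related and patched-related genes 8 were higher and 4 lower, and the lower ones included ptr-24 (-1.20, adjusted p = 8.34e-06). The lower count was 2 without acs-20 replicate 2.

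Of the 6 furrow collagens, which peak at each moult and whose loss is known to switch on the epidermal peptides, 0 were called by edgeR, 0 had an unadjusted p under 0.05 and 0 were called by DESeq2. Their differences ran from 0.03 for dpy-3 to 0.19 for dpy-10, with adjusted p-values between 0.721 and 0.96. Their summed level was 1518, 1294 and 1872 CPM in eat-2, against 1813, 870 and 1574 CPM in acs-20. The sum in acs-20 replicate 2 was the lowest of the 6, while its summed vitellogenins were the highest, at 11342 CPM against 3523 and 3203 CPM in the other acs-20 libraries. Replicate 2 also had the lowest furrow collagen sum in eat-2 and in wild-type. In wild-type these sums were 1440.5, 1238 and 1738.5 CPM. Summed vitellogenins were highest in replicate 2 in wild-type too, at 9689 CPM, but in replicate 1 in eat-2. The sums of vitellogenins in eat-2 were 456, 251 and 189 CPM.

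Tissue markers were compared because whole worms differ in the share of each tissue. In such samples fewer cells of a type and less RNA per cell cannot be told apart. Of 29 tested body wall muscle genes, 11 were lower in eat-2 and 1 higher, with a median of -0.30. Their sum was 14019, 15360 and 15296 CPM in eat-2, against 17983, 20527 and 19483 CPM in acs-20 and 19575, 18691 and 16644 CPM in wild-type. The called genes included tni-1, a troponin I gene (-0.75, adjusted p = 0.000376), and mup-2, troponin T (-0.62, adjusted p = 0.00106). Transcripts of tni-1 averaged 97.2 CPM in eat-2 and 164 CPM in acs-20, with 103 CPM in wild-type. Its wild-type libraries overlapped with eat-2 and lay apart from acs-20. Those of mup-2 averaged 442 CPM in eat-2 and 678 CPM in acs-20, with 574 CPM in wild-type, apart from both mutants. The count of lower muscle genes was 7 without eat-2 replicate 1 and 6 without acs-20 replicate 2.

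Nervous system genes pointed the other way, and their calls depended on single libraries. All 22 tested neuronal genes had positive differences, with a median of 0.40, and 7 were called higher. That count was 0 without eat-2 replicate 1, 1 without acs-20 replicate 3, 2 without acs-20 replicate 2, 3 without eat-2 replicate 3 or acs-20 replicate 1, and 11 when eat-2 replicate 2 was left out. Their sum was 984, 715 and 867 CPM in eat-2, against 733, 630 and 668 CPM in acs-20, so the groups overlapped. All 30 FMRFamide-like neuropeptide genes were also positive, with a median of 0.58 and 6 called. These came to 1 without eat-2 replicate 1, acs-20 replicate 2 or acs-20 replicate 3, 2 without eat-2 replicate 3, and 10 when eat-2 replicate 2 was left out. The neuropeptide gene flp-9 was at 24.6, 19.4 and 22.04 CPM in eat-2, against 12.3, 11.9 and 11.78 CPM in acs-20 and 12.03, 14.6 and 18.7 CPM in wild-type (log2 difference 0.88, SE 0.157, adjusted p = 0.00242).

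Markers of the seam cells, the stem cells of the epidermis, summed to 72.0 to 115 CPM in eat-2, against 44.8 to 54.6 CPM in acs-20 and 50.6 to 67.9 CPM in wild-type, with 1 of 5 markers called higher. Markers of pharyngeal muscle, the tissue that eat-2 drives, summed to 142 to 178 CPM in eat-2, against 90.0 to 130.3 CPM in acs-20 and 199.9 to 228 CPM in wild-type, so the 3 groups did not overlap. Of 9 pharyngeal muscle genes 2 were higher and 0 lower. The sum of these 9 genes ran the other way, at 2143 to 2453 CPM in eat-2, against 2638 to 2936 CPM in acs-20 and 2213 to 2915 CPM in wild-type. The higher count was 0 without eat-2 replicate 1 or acs-20 replicate 3 and 1 without acs-20 replicate 1. The pharyngeal myosin gene myo-2 was at 51.5, 53.7 and 44.4 CPM in eat-2, against 25.2, 46.4 and 31.6 CPM in acs-20 and 75.8, 84.2 and 76.2 CPM in wild-type (log2 difference 0.53, SE 0.171, adjusted p = 0.0641), so the mutants overlapped for this gene and both lay below wild-type. Of 17 intestinal genes 3 were higher and 5 lower, the lower ones being 3 without eat-2 replicate 3. Summed intestinal markers were at 3562 to 4823 CPM in eat-2, 3388 to 3594 CPM in acs-20 and 3896 to 4010 CPM in wild-type. The 17 intestinal genes summed to 17336 to 21455 CPM in eat-2, against 15225 to 15830 CPM in acs-20 and 15163 to 17096 CPM in wild-type, so every eat-2 library was above every other.

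Germline transcripts gave 0 calls of 27 germline genes and 0 of 26 oocyte, eggshell and yolk receptor genes by edgeR. At an unadjusted p under 0.05 there were 0 and 1, and DESeq2 called 0 of either. Differences were negative in 24 of the 27 germline genes, with a median of -0.22. They were negative in 16 of the 26 oocyte, eggshell and yolk receptor genes, with a median of -0.04. Of 71 sperm genes 2 were higher and 1 lower, and the higher count was 0 in 4 of the 6 fits without a library. Sperm gene differences were positive in 50 of the 71, with a median of 0.23. Germline markers summed to 648 to 1171 CPM in eat-2 and 801 to 1320 CPM in acs-20. Oocyte and eggshell markers summed to 369 to 816 CPM in eat-2 and 407 to 909 CPM in acs-20, so both ranges overlapped widely. Replicate 2 had the highest sum of its group for the 26 oocyte, eggshell and yolk receptor genes. These sums were 1846 CPM in eat-2, 1929 CPM in acs-20 and 1563 CPM in wild-type. For the 27 germline genes replicate 2 was also highest, at 3162, 3314 and 2938 CPM in the same order. Adult cuticle genes summed to 7740, 8840 and 11097 CPM in eat-2, against 12110, 13041 and 11515 CPM in acs-20 and 14977, 12364 and 14917 CPM in wild-type, and every eat-2 library was below every acs-20 library. Of 15 such genes 1, col-41, was called, and it was higher. These sums and those of vitellogenins moved with the genotype, and the part of developmental timing in the called genes was not tested.

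**Figure D5:**
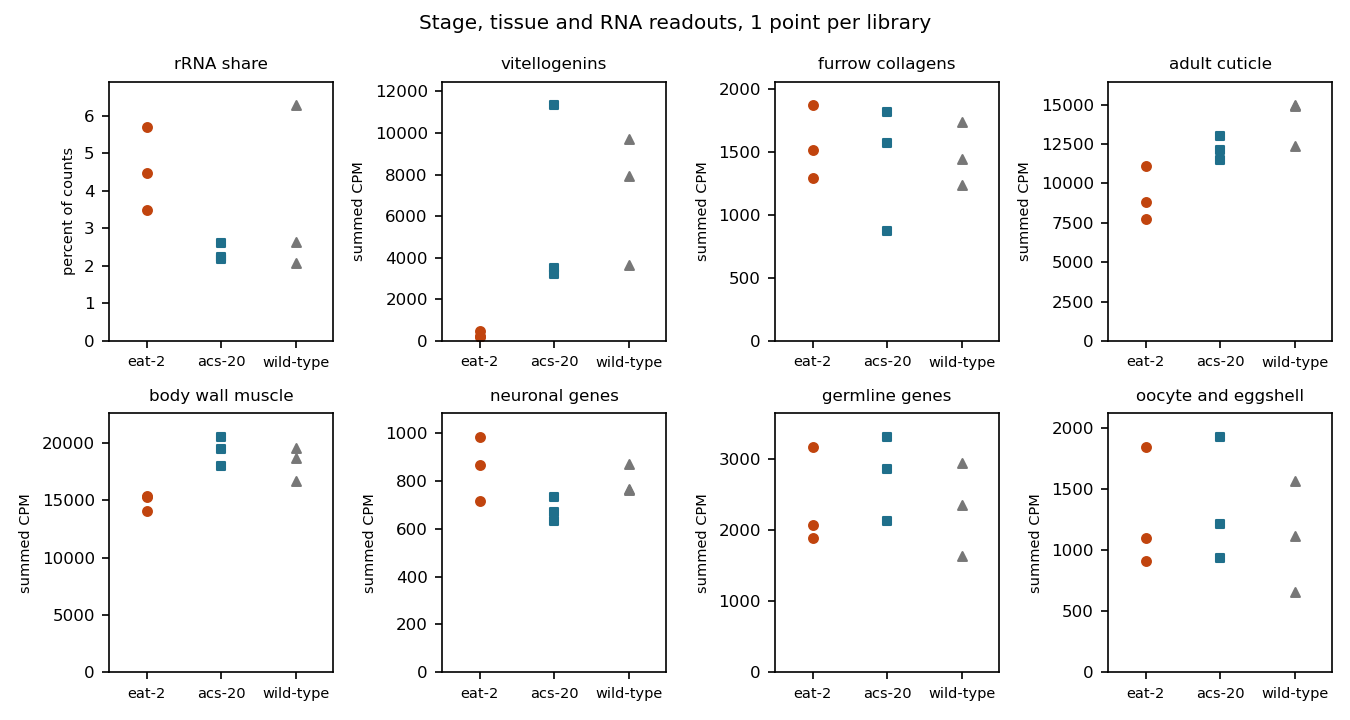
Summed CPM of gene groups that follow stage or tissue, and the share of counts from ribosomal RNA, 1 point per library, with eat-2, acs-20 and wild-type side by side. Vitellogenins, body wall muscle and adult cuticle genes are lower in all eat-2 libraries than in all acs-20 libraries, and ribosomal RNA is higher, while furrow collagens overlap.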

How the data were processed

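RNA from whole worms was sequenced in 12 libraries. The authors deposited raw read counts per gene, 1 table per library, and the tools listed in the submitters' processing notes are TopHat2, HTSeq, DESeq2 and FastQC 0.11.5. Build, annotation and strand setting were not given in the sources used here, so a gene may carry reads of a coding neighbour on the opposite strand, as 322 of the 1576 called genes have one. Symbols and chromosomes came from the Ensembl annotation of WBcel235. Summary lines were dropped; reads assigned to no gene were 44.1 to 46.5% of all reads.

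Counts were filtered with filterByExpr (minimum count 10, minimum total 15), which left 14390 genes. They were tested with edgeR 4.0.16 in R 4.3.3: TMM, 1 model with 4 group means over all 12 libraries, 8 residual degrees of freedom, robust quasi-likelihood tests of eat-2 minus acs-20, and a call at an adjusted p under 0.05. All 12 were used so that the groups share 1 estimate of the spread (common biological coefficient of variation 0.153). On simulated counts with 200 changed genes, 57 of 100 changed 2-fold and 91 of 100 changed 4-fold were recovered, with 7 false among 155 calls. A floor of 3 counts over a group stands for 0 counts; intervals are 95% and cover counting error only.

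The members and the 57 gene lists were chosen with earlier results of these data known, so their counts are descriptions, and no p is given for a list. Named genes were the mutated genes, the 12 highest and 12 lowest called genes at an average log2 CPM of at least 3 without overlap between the groups (at most 2 per family), up to 4 called members with the smallest p per list, all members of lists of up to 8, and 16 sentinels. Of the genes this rule allows, those whose call ended with a library left out are mostly given as counts. Lists not described are propionate breakdown (2 higher and 0 lower of 12), SKN-1 targets (3 and 4 of 15), abu and pqn genes (2 and 1 of 56), pharyngeal gland and marginal cells (1 and 0 of 10), moulting genes (2 and 0 of 28), glycolysis and glyoxylate genes (0 and 3 of 28), DAF-16 targets (2 and 3 of 15), insulin-like peptides (2 and 0 of 17), histones (1 and 1 of 47) and ribosomal RNA genes (0 and 0 of 2). The sentinel sod-3 had too few counts to be tested. Alternatives were DESeq2 1.42.0, RLE size factors, no filter, a 2-fold threshold, fewer groups in the fit, a replicate block, no ribosomal RNA genes and each library left out.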

Additional observations from a re-analysis of the deposited data

How the results depend on the processing

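Of 1576 calls (1012 higher and 564 lower in eat-2), RLE size factors gave 1570, DESeq2 1724, no filter on low counts 1791, the 6 libraries alone 1306, 9 libraries without the double mutant 1399 and removal of ribosomal RNA genes 1579. A test against a 2-fold difference gave 193, with 124 higher and 69 lower. Leaving out each library gave 1003 to 1618 calls, 600 to 1104 higher and 355 to 514 lower, with 1003 without eat-2 replicate 1, 1009 without acs-20 replicate 2 and 1029 without acs-20 replicate 3. Fewer libraries entered these fits. Of the 170 called named genes, 129 stayed called in all 6, and 0 of the 170 changed sign in any alternative run. The replicate numbers were checked for pairing: deviations of same-numbered eat-2 and acs-20 libraries correlated at 0.239, 0.288 and 0.0859. Libraries of different numbers correlated at -0.397 to 0.196. Each acs-20 library correlated best with the eat-2 library of its number, but eat-2 replicate 3 correlated best with acs-20 replicate 1 (0.196). The labels do not say whether the numbers mark shared batches, and the main fit took no pairing. A fit with the replicate block called 1963 genes. Precision is limited by 3 libraries per strain: in simulation 57 of 100 genes changed 2-fold were recovered. Only 200 genes were changed in that simulation, against 1576 called in the data, so recovery in the data may differ.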

Other observations

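The called genes were spread unevenly over the chromosomes of the WBcel235 annotation. On chromosome V 17.4% of 2776 tested genes were called, 306 higher and 176 lower in eat-2, and on chromosome X 13.5% of 1969. The share was 10.1% on IV, 9.95% on II, 8.21% on III and 6.11% on I, against 11% of all genes, and 0 of 14 mitochondrial genes were called. Large tandem families such as C-type lectins, UDP-glucuronosyltransferases and nuclear hormone receptors are not independent genes, and no test was made of these shares.

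Families seen to stand out after all 180 symbol families with at least 8 tested genes were counted included the claudin-like clc genes, with 11 of 21 higher in eat-2 and 0 lower and a median of 0.73. The P-glycoprotein genes, which export foreign compounds, were higher in 5 of 13 cases and lower in 1. Among these, pgp-1 averaged 228 ± 44.9 CPM in eat-2 and 89.9 ± 27.4 CPM in acs-20, with 44.8 ± 7.76 CPM in wild-type (log2 difference 1.34, adjusted p = 0.00129). The transthyretin-related ttr genes had 4 higher and 9 lower of 47. Among genes outside the naming rule, the alcohol dehydrogenase gene adh-1 averaged 271 ± 13.7 CPM in eat-2 and 31.6 ± 7.33 CPM in acs-20, with 104 ± 46.8 CPM in wild-type (log2 difference 3.10, adjusted p = 0.000168), and it overlaps the coding gene sodh-2 on the other strand.

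The strain that carries both mutations gave further levels for the same genes, outside the comparison. Its mean was nearer to eat-2 for 819 of the 1012 genes higher in eat-2 (80.9%) and nearer to acs-20 for 193. For the 564 genes lower in eat-2 it was nearer to eat-2 for 352 (62.4%) and nearer to acs-20 for 212. These are positions of means, with no test.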
